A study of Homo sapiens with 8 samples.

Results

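Loss of ATF4 during BRAF inhibition was examined on 2 of the 8 arrays of the series, siATF4/VEM and siCont/VEM, chosen by their treatment labels. A375 is a human melanoma cell line whose BRAF kinase carries an activating mutation, and vemurafenib blocks that kinase. The siATF4/VEM cells had received an siRNA against ATF4 and the siCont/VEM cells a nontargeting siRNA, and both were then kept in 10 uM vemurafenib for 4 h. Transfection and drug are thus shared by the arrays compared, and by their labels they differ in the siRNA. With 1 array each, a difference between cultures or between siRNA sequences cannot be told apart from the loss of ATF4. Beside them stand an array of nontargeting siRNA in the solvent for 4 h (siCont/DMSO) and a pair in normal medium for 18 h (siCont/Normal and siATF4/Normal), which shares no array with the vemurafenib pair. The labels give neither the siRNA sequences nor the time from transfection to drug. None of the 8 arrays is siATF4 in DMSO, so the siATF4 difference in the solvent is not available. With 1 array per condition no difference could be tested, and each value describes the arrays it comes from. The DMSO levels are given beside the others and not counted, since a comparison with DMSO would share the siCont/VEM array.

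ATF4 is a basic leucine zipper transcription factor of the integrated stress response. Kinases that sense amino acid shortage, ER stress, heme or double-stranded RNA phosphorylate the translation factor eIF2 alpha, which slows protein synthesis in general while the ATF4 mRNA is translated more. Paired with C/EBP family proteins, ATF4 binds C/EBP-ATF response elements and turns on genes that make, import and charge amino acids, together with genes that slow growth or end the response.

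Values are fluorescence intensities after RMA, a normalization that summarises the probes of each probe set. A difference is that of log2(intensity + 1), siATF4 minus siCont, so that -1 is 2-fold lower and low genes appear less changed than they are. A gene stands for its brightest probe set, and it was compared if it was at or above an array's median intensity on at least 1 of the pair, 36.85 for siCont/VEM and 36.55 for siATF4/VEM. That left 13173 of 19775 genes. The melanoma genes SOX10 (651 with siCont, 669 with siATF4), MITF (798 and 878) and MIA (1856 and 2112) were well above the array median. The pigment genes MLANA, PMEL and TYRP1 lay below it on both arrays, at 13.81 to 24.97. The other listed pigment genes, TYR and DCT, were not below it on both arrays where a probe set was available. In all, 8 of the 11 melanocyte and melanoma markers with a probe set entered the comparison, and none was 2-fold apart. Of 15 markers of keratinocytes, fibroblasts, leukocytes and endothelium, 7 entered the comparison and none was 2-fold apart; KRT14 (497 and 573) and LYZ (249 and 335) were the brightest, LUM (107 and 188) was furthest apart, and PTPRC, CDH5 and PDGFRA were at 5.69 to 13.16. The 3' and 5' control probes of actin and GAPDH, a sign of RNA integrity, differed by -0.07 to 0.00 on the log2 scale on the pair.

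In vemurafenib, siATF4 cells had lower levels of ATF4 and of genes for serine, asparagine and cysteine synthesis, of the cystine transporter SLC7A11 and of the transcription factors JDP2 and CEBPG. In all, 96 genes were at least 2-fold lower with siATF4, 0.729% of those compared, and 27 were at least 2-fold higher, 0.205%, together 123 genes or 0.934%. The higher count was the less stable of the 2, at 8 with a constant of 16 in the log, 12 with the filter at the 75th percentile and 17 with the mean of a gene's probe sets, where the lower count was 83, 81 and 66. The difference was one-sided in size as well: 25 genes were at least 3-fold lower and 13 at least 4-fold lower, while none was 3-fold higher. Over all genes compared the median difference was 0.03 and the SD 0.28, and the central 95% of genes lay between -0.59 and 0.53. The lower genes were also brighter, with a median siCont/VEM intensity of 505 against 55.8 for the higher ones and 198 for all genes compared.

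**Figure D1:**
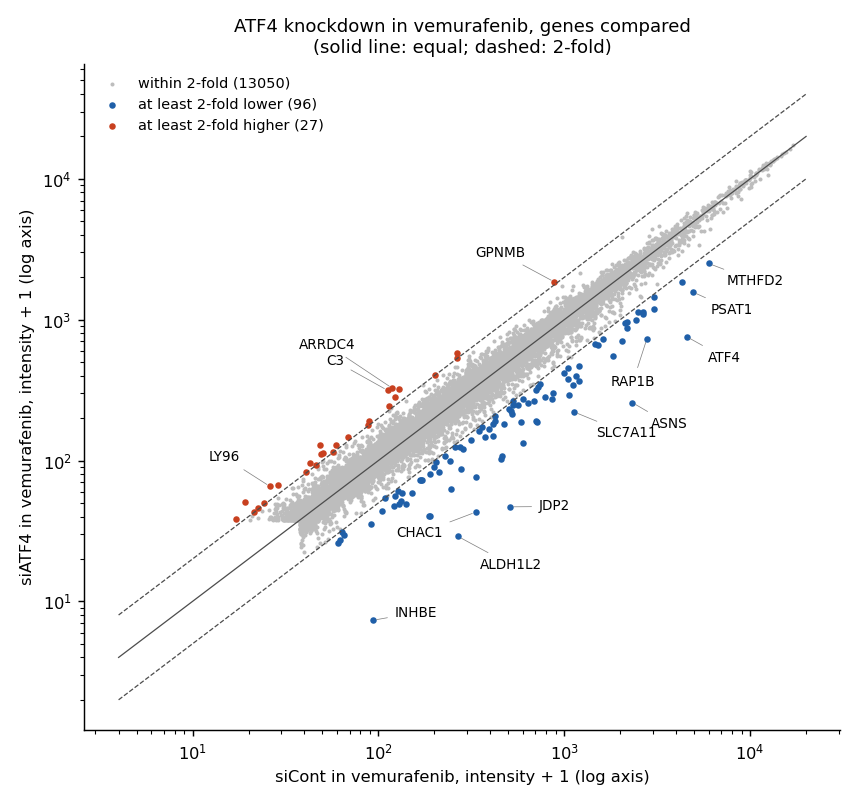
Intensity + 1 of 13173 genes on the siCont (x axis) and siATF4 (y axis) arrays in vemurafenib, both on log axes, with 1 point per gene and dashed lines at 2-fold. The 96 lower genes reach 12.7-fold (INHBE) and extend to bright genes such as MTHFD2, whereas the 27 higher genes stay within 3-fold and lie mostly at low intensities.

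The target itself read 4548 with siCont and 757 with siATF4, 6.0-fold lower. It was measured by 1 probe set with a single symbol. In siCont cells in DMSO the same probe set read 2390, so the knocked-down level in the drug lay below the level without it. In normal medium ATF4 was at 1814 with siCont and 534 with siATF4, a difference of -1.76 against -2.59 in vemurafenib.

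The core of the C/EBP-ATF response element, TGATGNAA on either strand, was looked for in RefSeq promoters of GRCh38.p14, from 250 bases before to 50 bases after a gene's start. A promoter was found for 84 of the 96 lower genes, and 9 of them (10.7%) held the motif, against 1 of 17 (5.88%) for the higher genes, 1.89% of 10635 promoters of genes compared and 3.67% of all 27305 promoters. For the stricter form TGATGCAA, every match of which is also a TGATGNAA match, the numbers were 4 of 84 (4.76%), 0 of 17, 0.508% and 0.923%. A match is a string of letters, not a shown binding site, and the table holds 1 start per gene. The 9 lower genes were ASNS, CHAC1, MCFD2, CARS1, SLC7A1, HERPUD1, BCAT1, SLC38A1 and ATF3. The 6 that carry the match before the start are shown with up to 40 bases on either side, 5′ to 3′ along the gene's strand, the motif in capitals.
ASNS: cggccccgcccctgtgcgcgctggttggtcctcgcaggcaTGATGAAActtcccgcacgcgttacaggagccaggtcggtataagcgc
CHAC1: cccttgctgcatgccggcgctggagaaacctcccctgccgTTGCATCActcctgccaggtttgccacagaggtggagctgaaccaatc
HERPUD1: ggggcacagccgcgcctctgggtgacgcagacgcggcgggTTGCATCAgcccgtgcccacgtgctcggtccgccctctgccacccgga
BCAT1: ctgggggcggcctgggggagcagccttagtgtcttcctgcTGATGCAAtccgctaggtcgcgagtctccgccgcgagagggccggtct
ATF3: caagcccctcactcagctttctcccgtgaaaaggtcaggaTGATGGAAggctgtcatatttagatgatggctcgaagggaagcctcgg
MCFD2: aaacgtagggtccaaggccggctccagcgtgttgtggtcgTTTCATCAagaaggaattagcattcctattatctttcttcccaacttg
The stretches lie at chr7:97872429-97872516 on the minus strand (ASNS), chr15:40953222-40953309 on the plus strand (CHAC1), chr16:56931926-56932013 on the plus strand (HERPUD1), chr12:24949102-24949189 on the minus strand (BCAT1), chr1:212565176-212565263 on the plus strand (ATF3) and chr2:46916203-46916290 on the minus strand (MCFD2). The ASNS match, 68 to 61 bases before the start, falls in the well-studied amino acid response element of that gene. It reads in the gene's own direction, as do those of BCAT1 at 48 to 41 and ATF3 at 191 to 184 bases, while CHAC1 (209 to 202), HERPUD1 (176 to 169) and MCFD2 (138 to 131) carry the complement.

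Among stress transcription factors 5 of 11 were at least 2-fold lower and 0 higher, with a list median of -0.66. For this and each later list, the shares over all genes compared were 0.729% lower and 0.205% higher. JDP2, an AP-1 family protein that represses transcription, read 509 with siCont and 45.9 with siATF4, close to its 60.2 in DMSO. CEBPG, a C/EBP protein that dimerizes with ATF4, read 459 and 107, and its 2 probe sets gave differences of -2.09 and -2.07. CEBPB read 2166 and 871, NUPR1 read 104 and 42.7, and ATF3 read 227 and 106. On the probe set of ATF3 that is not shared between transcripts, at 37.8 and 36.0, the difference was -0.07, and the mean of all its probe sets was -0.74. DDIT3, which encodes the pro-death factor CHOP, and NFIL3 were within 2-fold, at -0.66 and -0.57. DDIT3 read 541 with siCont, 343 with siATF4 and 161 in DMSO, so the siATF4 array lay between the others. ATF5 was at -0.24 and CREBRF at 0.05, against a median of 0.03 for all genes compared.

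The list of ATF4 targets for growth restraint and feedback also holds targets with other roles, such as a lipoprotein receptor and an angiogenic growth factor. Of its genes, 6 of 14 were 2-fold lower and 0 higher. The median was -0.69, which ranged from -1.02 to -0.38 over the alternatives. CHAC1, which degrades glutathione, read 333 with siCont and 42.0 with siATF4, against 46.6 in DMSO. The pseudokinase TRIB3, an inhibitor of AKT and of ATF4, read 1108 and 344, and the mTORC1 inhibitor DDIT4 read 3037 and 1186. Both were thus below their DMSO levels of 750 and 1660 on the siATF4 array. The lipoprotein receptor VLDLR read 190 and 39.5. VEGFA, the angiogenic growth factor, read 598 and 133, and its 4 probe sets ranged from -2.16 to -0.89. STC2, a secreted glycoprotein, just passed the 2-fold line at -1.01 (-0.84 with a constant of 16), and SESN2, which restrains mTORC1 when leucine is short, fell just outside it at -0.99. The second SESN2 probe set was past the line, at -1.05. PPP1R15A, which recruits the eIF2 alpha phosphatase, was at -0.05 and GADD45A at 0.04. The stress cytokine GDF15 was at 0.46, beyond the 0.43 that 95% of all genes stayed under. In normal medium it was further apart, at 40.8 with siCont and 192 with siATF4 (2.21).

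Enzymes of serine, glycine and folate metabolism were 2-fold lower in 5 of 10, with 0 higher and a median of -1.07, and 4 of the others lay between -0.10 and 0.16. The median ranged from -1.45 to -0.49 over the alternatives. The 3 steps of serine synthesis were PHGDH at 1060 with siCont and 291 with siATF4, PSAT1 at 4931 and 1567, and PSPH at 1199 and 369. Each of the 3 was lower by 3.14-fold to 3.64-fold. MTHFD2 and ALDH1L2 are mitochondrial folate enzymes. MTHFD2 read 5980 and 2505 and ALDH1L2 read 267 and 27.9. SHMT2, which makes glycine from serine, read 1996 and 1080 and missed 2-fold at -0.89. Of its 3 probe sets 1 was past 2-fold, at -1.16. The cytosolic MTHFD1 was at -0.10 and ALDH1L1 at 0.13, and 2 mitochondrial enzymes, MTHFD2L (0.16) and the glycine cleavage enzyme GLDC (0.08), were not lower either. ALDH1L2 lay below the array median with siATF4, so the size of its difference depends on background. For PSPH, 2 probe sets gave -1.70 and -1.71, and the third, at intensities of 29.5 and 43.6, gave 0.55, and the mean of the gene's probe sets was at -0.95.

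Of the other amino acid enzymes 4 of 12 were 2-fold lower and 0 higher, with a median of -0.15. ASNS, which makes asparagine from aspartate and glutamine, read 2326 with siCont, 256 with siATF4 and 548 in DMSO, a 9.04-fold lower level than siCont in the drug. The transsulfuration enzymes CBS (244 and 62.1) and CTH (700 and 190) stand between homocysteine and cysteine. CTH stayed above its DMSO level of 81.6 on the siATF4 array, and CBS was below its 116. The CBS probe set that is not shared between transcripts, at 40.9 and 35.9, gave -0.18. BCAT1, a branched-chain aminotransferase, read 2186 and 967, with all 4 of its probe sets at least 2-fold lower. PYCR1, the last enzyme of proline synthesis, was at -0.57, the transaminase GOT1 was at -0.38, and the glutamate enzymes GLUL, GLUD1, GOT2 and BCAT2 lay between 0.07 and 0.15. The mitochondrial enzyme PCK2 (412 and 149) and the mitochondrial serine carrier SFXN1 (635 and 257), both on no list and named after their values were seen, were at -1.46 and -1.30.

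**Figure D2:**
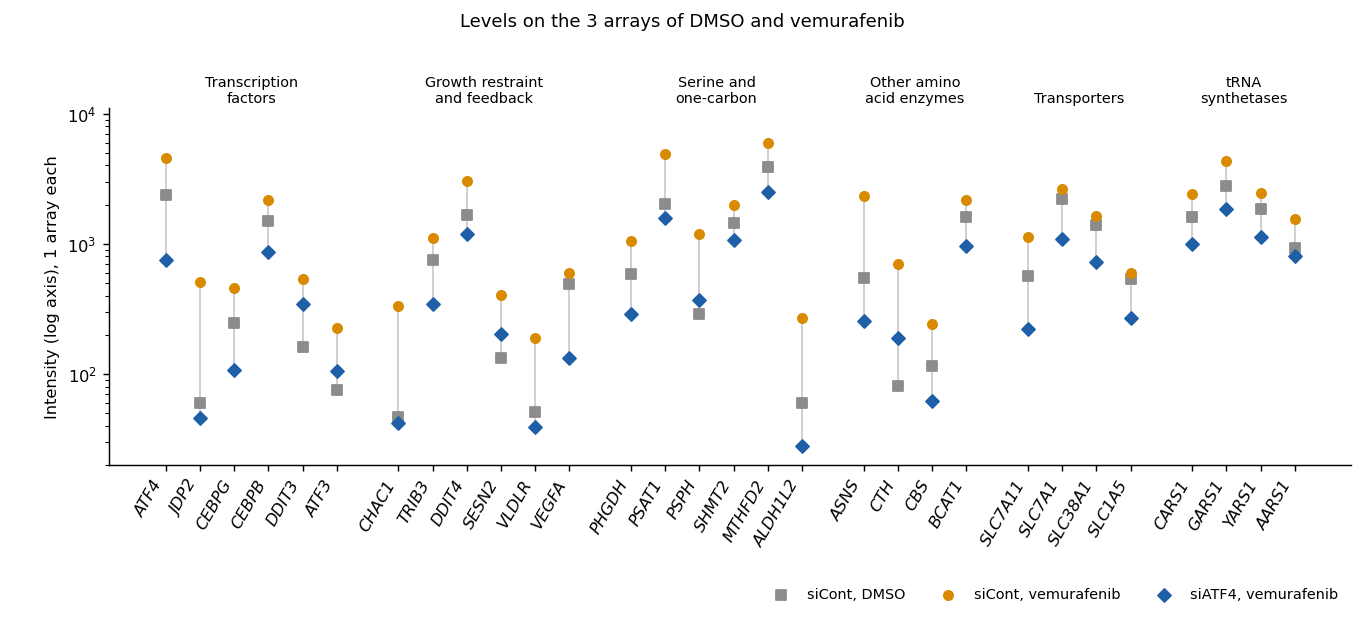
Intensity on a log axis of 30 genes on the arrays of siCont in DMSO (squares), siCont in vemurafenib (circles) and siATF4 in vemurafenib (diamonds), with 1 array each. The siATF4 diamond lies below the siCont vemurafenib circle for each of the 30 genes, and for DDIT3, ATF3, SESN2, PSPH and CTH it lies above the DMSO square.

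Amino acid transporters were 2-fold lower in 4 of 17 and higher in 0, with a median of -0.25, which ranged from -0.60 to -0.22 over the alternatives. SLC7A11, the cystine-glutamate exchanger, read 1129 with siCont and 220 with siATF4, and its 3 probe sets gave -2.495 to -1.33. SLC7A1, a carrier of arginine and lysine, read 2661 and 1097, the glutamine carrier SLC38A1 read 1625 and 723, and SLC1A5, which exchanges neutral amino acids including glutamine, read 597 and 270. Only 1 of 4 SLC7A1 probe sets (-1.28 to -0.52) and 2 of 4 SLC38A1 probe sets (-1.17 to -0.19) reached 2-fold, and averaged over their probe sets they were at -0.725 and -0.79. SLC1A4 was at -0.93 and SLC36A1 at -0.66. Of 4 SLC1A4 probe sets 2 were 2-fold lower, over a range of -1.545 to -0.705. The heavy chain SLC3A2 (-0.60) and the leucine carrier SLC7A5 (-0.41) differed less in the drug than in normal medium, where they were at -0.90 and -1.05. SLC38A2, another carrier known to respond to amino acid shortage, was at -0.16.

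Cytosolic aminoacyl-tRNA synthetases, which charge tRNAs, were lower for part of the family: 3 of 17 were 2-fold lower, 0 higher, and the median was -0.37. CARS1 read 2437 with siCont and 998 with siATF4, GARS1 read 4307 and 1851, and YARS1 read 2480 and 1126. The second YARS1 probe set gave -0.69, and the mean of both was -0.91. AARS1 (-0.96), TARS1 (-0.82), SARS1 (-0.76) and WARS1 (-0.72) followed, while HARS1, KARS1, VARS1 and FARSA lay between 0.00 and 0.12. The second SARS1 probe set was past 2-fold, at -1.77. The 15 mitochondrial synthetases, encoded by separate genes, ranged from -0.15 to 0.38 with a median of 0.00, and none was 2-fold apart. LARS2 (0.38) and CARS2 (0.31) were the furthest from 0.

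**Figure D3:**
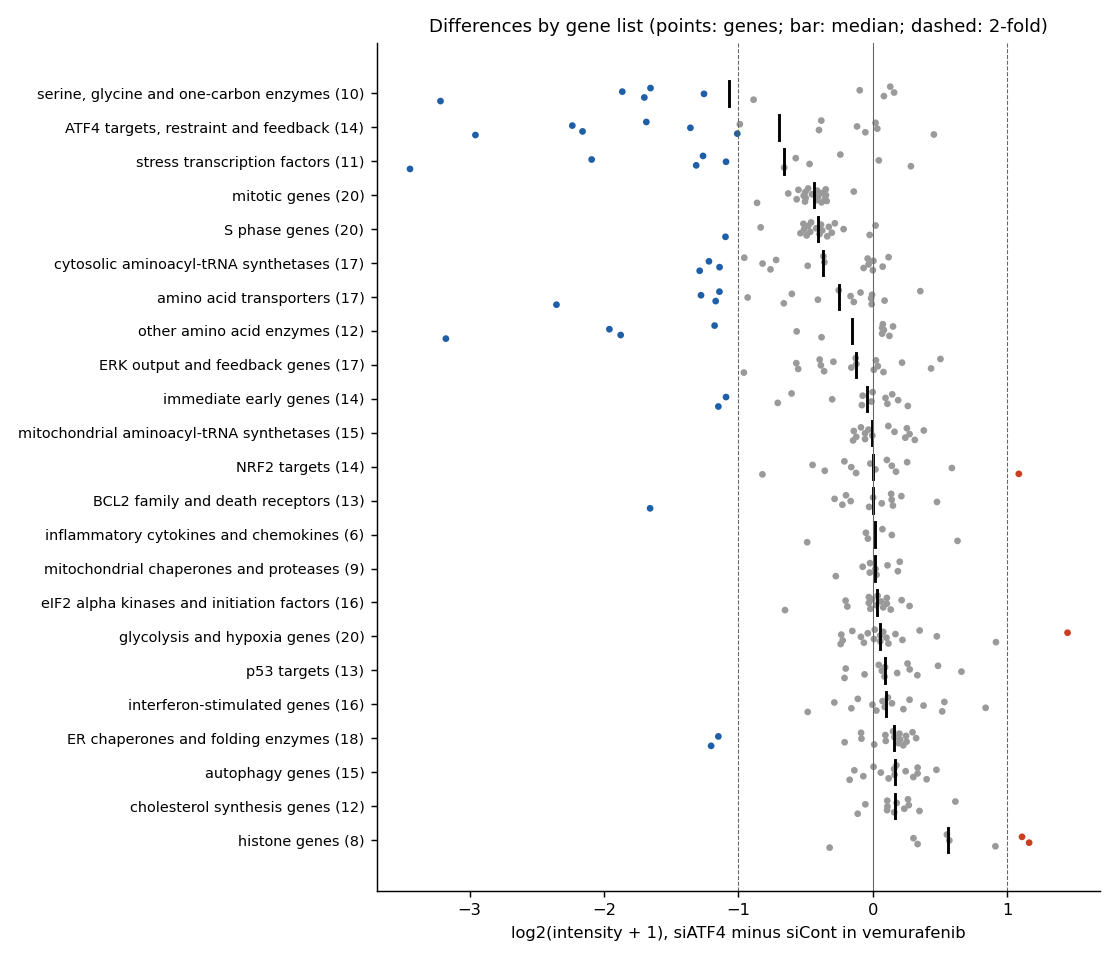
Difference of log2(intensity + 1), siATF4 minus siCont in vemurafenib, for the compared members of 23 gene lists (1 point per gene, black bar at the list median, dashed lines at 2-fold, number of genes in brackets). The amino acid and stress lists hold members far to the left, the mitotic list lies wholly between -0.86 and -0.14, and the histone list is the only one with a median above 0.5.

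Outside the amino acid genes, the gene furthest apart was INHBE, a subunit of the activin family of secreted factors. It read 92.4 with siCont, 6.34 with siATF4 and 8.91 in DMSO, and since the siATF4 and DMSO values lie far below the array median the size of -3.67 depends on background. The vesicle traffic GTPase RAB39B read 186 and 39.2, with 35.2 in DMSO, and TUBE1, which encodes epsilon-tubulin, read 335 and 74.8, with 174 in DMSO. A few of the 18 lowest genes were no higher in the drug than in DMSO in siCont cells. YWHAH, a 14-3-3 protein, read 587 in DMSO, 457 in vemurafenib with siCont and 102 with siATF4. RAP1B, a RAS-like GTPase, read 3157, 2783 and 731, and ITPRID2 read 935, 713 and 187. These 3 were also at -0.86, -1.002 and -0.89 in normal medium. Of the 96 lower genes, 32 were on 1 of the 23 lists and 64 on none.

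Of 18 ER chaperones and folding enzymes 2 were 2-fold lower, and the list median was 0.16. HERPUD1, which serves ER-associated degradation, read 1516 with siCont and 658 with siATF4, and XBP1, a transcription factor of the unfolded protein response, read 424 and 191. With the mean of all probe sets of a gene both came within 2-fold, HERPUD1 at -0.592 and XBP1 at -0.588. Each has a second probe set that lay below the array median. DNAJB9 and MANF were both at 0.25. The chaperones HSPA5 (0.01), HSP90B1 (0.23), PDIA4 (0.32) and SEL1L (0.30) were at or slightly above their siCont level. Upstream of ATF4, the eIF2 alpha kinases EIF2AK3, EIF2AK4, EIF2AK1 and EIF2AK2 were at 0.22, 0.28, 0.14 and 0.00, and the list they belong to had a median of 0.03, with EIF2S2, a subunit of eIF2, lowest at -0.65.

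Among 13 regulators of cell death, PMAIP1, which encodes the BH3-only protein NOXA, was 2-fold lower, and the list median was 0.00. PMAIP1 read 855 with siCont, 271 with siATF4 and 965 in DMSO, with probe sets at -1.66 and -1.53. The highest member was the death receptor TNFRSF10A, at 107 and 150 (0.48), with its 3 probe sets at 0.15 to 0.48. The other death receptor, TNFRSF10B, was at 0.00. The BCL2 family members HRK (-0.28), MCL1 (-0.23), BIK (-0.20), BCL2L11 (-0.03) and BMF (0.21) were within 2-fold.

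For the drug's own pathway, 17 ERK output genes were compared. None was 2-fold apart between the vemurafenib arrays, and the median was -0.13. SPRY2, an inhibitor of receptor kinase signalling, read 92.5 with siCont and 75.4 with siATF4, against 1990 in DMSO, and the ERK phosphatase gene DUSP4 read 108 and 110, against 1450 in DMSO. MYC came closest to 2-fold, at 52.6 and 26.6 (-0.96), with SPRED2 at -0.57, and the cyclin CCND1 was the highest at 537 and 763 (0.51). Of 14 immediate early genes KLF4 (274 and 123) and ATF3, which is also on the list of stress factors, were 2-fold lower, KLF4 being at -0.79 with the mean of its probe sets. EGR3 was at -0.71, MAFF at -0.60, JUNB at -0.30, JUN at 0.00 and ZFP36 at 0.26.

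Proliferation genes were slightly lower as a body. All 20 mitotic genes were below 0, from -0.86 to -0.14 with a median of -0.43, and 19 of 20 S phase genes were below 0 with a median of -0.41, whereas 43.4% of all genes compared were below 0 and 8.27% below -0.3. Only CDC6, which loads the replicative helicase, was 2-fold apart, at 531 with siCont and 248 with siATF4, and -0.93 without probe sets shared between transcripts. CDT1, RRM2, RFC3 and GINS2, which also serve DNA replication, were at -0.54 to -0.49. TPX2, a spindle assembly factor, read 1576 and 867, BUB1B read 1381 and 893, the cyclin CCNE2 read 312 and 175, and the proliferation marker MKI67 read 558 and 408, with its 4 probe sets at -0.45 to -0.36. The second CCNE2 probe set was past 2-fold, at -1.10. In normal medium the mitotic median was 0.01 and the S phase median -0.14. The CDK inhibitor CDKN1A was at 838 and 1325 in vemurafenib (0.66), the highest of 13 p53 targets, whose median was 0.09, with SESN1 next at 0.49. In normal medium, too, CDKN1A was higher with siATF4, at 532 and 1118 (1.07). Since cells were collected in bulk, fewer cycling cells and less of each RNA per cell cannot be told apart.

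The 27 higher genes were led by the complement component C3 (111 with siCont, 314 with siATF4) and ARRDC4 (118 and 324), an arrestin domain protein that limits glucose uptake. TXNIP, its relative, read 2032 and 3839 and was at 0.92, just under 2-fold, while the other 18 of 20 glycolysis and hypoxia genes lay between -0.24 and 0.48. Among these were ALDOC (0.48), SLC2A3 (0.35), ADM (-0.24) and HK2 (-0.23). The other compared SLC2A3 probe sets were further from 0, at 0.74 and 0.88. The exchange factor VAV3 read 127 and 322, with all 3 of its probe sets at least 2-fold higher, and the microtubule protein MAP2 read 47.4 and 128 (0.66 with the mean of its probe sets). LY96, the partner of the receptor TLR4, read 25.1 and 64.5, the aryl hydrocarbon receptor target CYP1A1 read 41.7 and 95.3, and the hormone gene STC1 read 58.1 and 128. ANKEF1 read 48.2 and 110 (1.17; 0.93 with the mean of its probe sets). For CYP1A1 and STC1 the siCont levels in DMSO were 129 and 423, above both vemurafenib arrays. Histone genes were 2-fold higher in 2 of 8, H2BC21 (49.1 and 111) and H2AC6 (265 and 574), with 7 of 8 above 0 and a median of 0.56. H2BC4 was at 0.91, H2BC12 at 0.57, H2BC5 at 0.55 and H1-2 at 0.34. Of the 27, 7 lay below the array median with siCont, among them LY96, FDCSP, GJA5 and LEFTY1, so that their sizes depend on background.

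The remaining lists held few or no genes 2-fold apart. Of 14 NRF2 targets only AKR1B10 (67.8 with siCont, 145 with siATF4) passed, and HMOX1, the heme oxygenase, was at -0.82. AKR1C1 was at 0.59, GCLM, a subunit of the enzyme that starts glutathione synthesis, at -0.45, OSGIN1 at -0.36 and PIR at 0.26. Interferon-stimulated genes had 0 of 16 2-fold apart and a median of 0.10, with IFITM1 highest at 0.84 and IFIH1 next at 0.53. The 15 autophagy genes lay between -0.17 and 0.47, with WIPI1 and NBR1 (0.40) highest. The 9 mitochondrial chaperones and proteases lay between HSPA9 at -0.27 and TRAP1 at 0.20, and the 12 cholesterol genes between -0.11 and 0.62, with INSIG1 and MVD (0.35) highest. Of 14 cytokine and chemokine genes only 6 entered the comparison, with a median of 0.02, IL11 at -0.49 and IL24 at 0.63. In normal medium IL11 was higher with siATF4, at 251 with siCont and 820 with siATF4 (1.705). CXCL8, CXCL1 and IL6 were below the array median on both arrays.

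Setting the vemurafenib pair beside normal medium shows which of these differences also appeared without the drug. Of the 96 lower genes 93 had a value in normal medium, 77 of them were below 0 there and 11 were 2-fold lower, against 44.1% of all 12589 genes below 0 and 0.387% of 13170 at least 2-fold lower. Their median in normal medium was -0.39, against 0.03 for all genes. It is not set against their vemurafenib median, since the genes were chosen by the vemurafenib value. The 11 were ATF4, ALDH1L2, JDP2, ASNS, CBS, PHGDH, BCAT1, RAP1B, IGFBP3, GPC6 and FST. Some genes far apart in the drug were at or above 0 in normal medium: SLC7A11 was at 262 with siCont and 313 with siATF4 there (0.25), CTH at 55.6 and 68.9 (0.31) and CEBPB at 1151 and 1465 (0.35). PSPH was at -0.07 and CHAC1 at -0.40. Of the 27 higher genes 24 had a value, 22 were above 0 (55.7% of all genes were), and 8 were 2-fold higher, against 0.471% of all genes; either way, 0.858% of genes were 2-fold apart in normal medium. The difference between the settings was not tested, and drug, exposure time and array scale all differ between them.

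**Figure D4:**
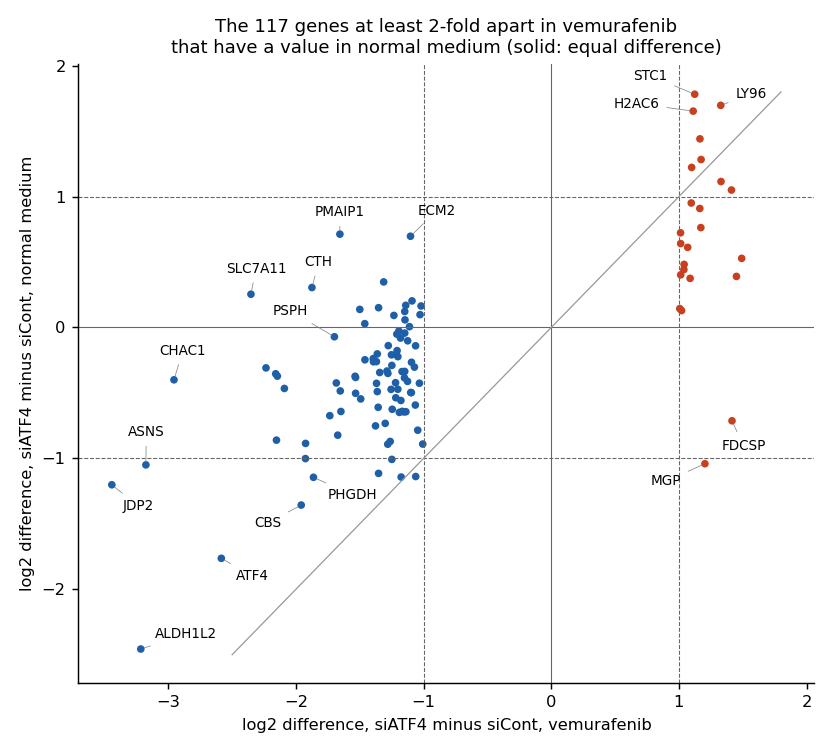
Difference of log2(intensity + 1), siATF4 minus siCont, in vemurafenib (x axis) and in normal medium (y axis) for the 117 genes at least 2-fold apart in vemurafenib that have a value in normal medium, with dashed lines at 2-fold and a solid line of equal difference. The genes were chosen by their vemurafenib value, which by itself places most of them nearer to 0 on the other axis. SLC7A11, CTH and PMAIP1 lie above 0 in normal medium.

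Without replicate arrays, the probe sets of 1 gene give the only error within an array. Over the 6382 genes with at least 2 compared probe sets, the median SD of the difference between probe sets of a gene was 0.10, and 95% of genes were under 0.32. Of the 96 lower genes 56 had at least 2 such probe sets. In 51 of these all probe sets lay below 0, against 28.5% of the 6382 genes. In 34 at least 2 probe sets were 2-fold lower, against 0.548% of the 6382. The choice of the genes fixes 1 probe set of each, which these counts include. The 6382 genes also contain the 56, so the 0.548% holds the same 34 genes and is no separate background. The counts therefore describe how probe sets agree and are no support for the calls. The 5 with a probe set on the other side were PSPH, MCFD2, TMF1, SLC35G1 and ARIH2. Of the 27 higher genes only 6 had at least 2 probe sets. All of their probe sets lay above 0, as did all those of 35.1% of the 6382 genes. With the mean of all probe sets of a gene, dim ones included, several large differences were smaller: ASNS was at -1.69, ALDH1L2 at -1.96, JDP2 at -1.82, VEGFA at -1.46, ITPRID2 at -1.27 and TUBE1 at -1.14. INHBE was at -2.28 with a constant of 16 in place of 1. The other 40 lower and 21 higher genes rest on 1 probe set each. This error covers hybridization and transcript choice, not the difference between cultures.

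**Figure D5:**
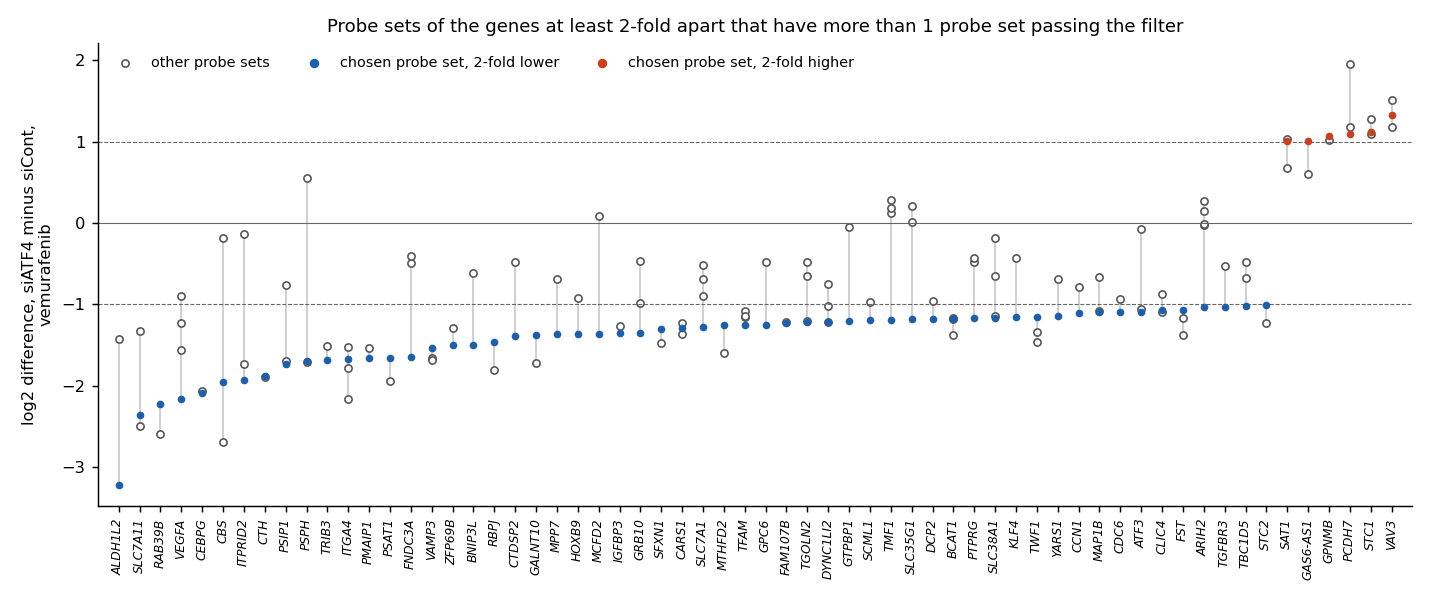
Difference of log2(intensity + 1), siATF4 minus siCont in vemurafenib, for each compared probe set of the 62 genes at least 2-fold apart that have more than 1 (filled: the probe set chosen for the gene; open: the others; dashed: 2-fold). SLC7A11, CEBPG, CTH, TRIB3 and PSAT1 have all their probe sets past the 2-fold line, while CBS, PSPH and ATF3 have 1 near or above 0.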

How the data were processed

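Of the 54675 probe sets on each of the 8 arrays, 41097 are paired with 1 gene symbol in the platform annotation, 1801 with several and 11715 with none, and 62 are array controls. The deposited intensities are linear values that the authors made with RMA, as the submitters' processing notes record; its version is not given in the sources used here. Current RefSeq symbols were found through the gene ID for 41043 probe sets, and probe sets with several symbols were left out. Array medians were 36.38 to 36.85 in the DMSO and vemurafenib set and 14.82 and 15.14 in the normal medium pair, so levels are compared within a set only.

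The log2(intensity + 1) values were computed without further normalization in Python 3.11.15 with numpy 2.4.6 and pandas 2.3.3. A gene's probe set was the one brightest on average in the series, and the filter was the 50th percentile of an array. The script was tested on simulated data. The genes named are ATF4, the 18 lowest and 12 highest, the members furthest from 0 of 23 lists (up to 6 where any was 2-fold apart, otherwise 2), and genes of an earlier account of these data; further members and genes were named after their values were seen, to show the range of a list. The members and lists were chosen with earlier results of these data known. Precision is limited by the number of arrays, and no test was made. Alternatives changed the constant, the filter, the probe set rule and the normalization.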

Additional observations from a re-analysis of the deposited data

Results flagged for a closer look

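PMAIP1 (-1.66 in vemurafenib, 0.71 in normal medium) and ECM2 (-1.10 and 0.70) were 2-fold lower with siATF4 in vemurafenib and at least 1.5-fold higher with it in normal medium. The opposite held for FDCSP (1.42 in vemurafenib, -0.71 in normal medium) and MGP (1.20 and -1.04). These 4 drew attention because the siATF4 minus siCont difference had opposite signs in the 2 settings. The difference was not tested, and each sign rests on 1 pair of arrays. FDCSP lay below the array median with siCont in vemurafenib. MGP was at 0.60 in vemurafenib with the mean of its probe sets.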

How the results depend on the processing

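The 96 lower genes became 66 to 101 under 8 alternatives, within 1.5 times of the main count. The 27 higher genes became 8 with log2(intensity + 16), 12 with the filter at the 75th percentile and 17 with the mean of all probe sets of a gene, and 20 to 30 under the other 5. With the constant of 16, 83 of the 96 lower genes remained, and 81 with the stricter filter. Fewer remained with the mean of all probe sets, 60 of the 96 lower and 16 of the 27 higher genes. Without probe sets shared between transcripts 70 of the lower and 19 of the higher genes remained. Of 53 named genes at least 2-fold apart, none changed sign; 10 came within 2-fold with the constant of 16, and 11 of 51 with the mean of probe sets, among them PSPH (-0.95), SLC38A1 (-0.79), KLF4 (-0.79), SLC7A1 (-0.725), HERPUD1 (-0.592) and XBP1 (-0.588). Without probe sets shared between transcripts CBS was at -0.18 and ATF3 at -0.07. The medians of the lists with most lower genes kept their side but moved: serine and one-carbon -1.45 to -0.49, restraint and feedback -1.02 to -0.38, stress factors -1.20 to -0.62, cytosolic synthetases -0.69 to -0.35, transporters -0.60 to -0.22 and other amino acid enzymes -0.18 to -0.05. The mitotic (-0.45 to -0.41) and S phase (-0.42 to -0.34) medians moved little. Several medians crossed 0, among them those of interferon genes (-0.16 to 0.11), NRF2 targets (-0.21 to 0.02) and cytokines (-0.035 to 0.17). So did those of mitochondrial synthetases (-0.01 to 0.14), mitochondrial chaperones (-0.02 to 0.07), cell death regulators (-0.01 to 0.07) and the eIF2 alpha kinase list (-0.03 to 0.04). No paired analysis was possible because each group has 1 array. Differences of genes below the array median are limited by background.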
